A study of Mus musculus with 16 samples.

Results

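The oligoadenylate synthetase and Mx genes examined here were the 8 genes Oas1a, Oas1g, Oas2, Oas3, Oasl1, Oasl2, Mx1 and Mx2, taken by symbol from the 24394 named genes of a raw count table. All 8 were found, and all 8 were among the 14862 genes that passed the filter on low counts. RNA had been sequenced from CD8+ T cells sorted by flow cytometry out of the marrow of mice with induced bone marrow failure (BMF), a disease in which T cells destroy the blood-forming cells. The groups were BMF without drug and BMF with baricitinib (BAR), a drug that blocks JAK1 and JAK2, with 5 libraries of each at day 10 after induction and 3 of each at day 14. All groups carried the disease, and no healthy group was analysed here. The labels speak of pooled cells and give no strain, age, sex, drug dose, schedule or batch, so the spread behind each p-value is that between libraries and may be technical.

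Oligoadenylate synthetases bind double-stranded RNA, a sign of virus infection, and make short adenylate chains that act as an alarm signal in the cell. Oas1a, Oas1g, Oas2 and Oas3 code for synthetases, and Oasl2 codes for a like protein that keeps the enzyme activity in mice, while Oasl1 codes for a like protein without it that in mice holds back translation of Irf7. Mx1 and Mx2 code for dynamin-like GTPases that block virus replication, Mx1 in the nucleus and Mx2 in the cytoplasm. All are textbook targets of type I interferon, whose receptor signals through JAK1 and TYK2 to transcription factors that bind the interferon-stimulated response element (ISRE). In the mm10 build (GRCm38), the 4 synthetase genes lay in a cluster on chromosome 5 between Oas2 (chr5:120730333-120749853) and Oas1a (chr5:120896256-120907521), all on the minus strand. Oasl2 (chr5:114896936-114912234) and Oasl1 (chr5:114923240-114937915) lay next to each other on the plus strand of that chromosome, and Mx1 (chr16:97447035-97462907, minus strand) and Mx2 (chr16:97535308-97560900, plus strand) on chromosome 16. RefSeq lists Mx1 and Mx2 as transcribed pseudogenes in this reference, whereas GENCODE vM21 lists Mx1 as protein-coding and Mx2 as a polymorphic pseudogene, so values of these genes describe RNA.

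RefSeq promoter sequences of build GRCm38.p6 were matched for 5 of the 8 genes, Oas1a, Oas1g, Oas3, Oasl1 and Oasl2. The ISRE was searched as GAAANNGAAA on both strands of the 300 bases from 250 before to 50 after the start. This motif was found in 3.44% of the 32851 promoters of the same length. The gamma-activated site, searched as TTCNNNGAA, was found in 8.30% of them. The promoters of 4 genes are shown to set the closest relatives, Oas1a and Oas1g, beside genes whose promoters differ, Oas3 with an ISRE and Oasl1 without a match. Each line gives the 250 bases before the start on the gene's own strand, 5′ to 3′, with ISRE matches in capitals:
Oas1a (chr5:120907526-120907775, minus strand): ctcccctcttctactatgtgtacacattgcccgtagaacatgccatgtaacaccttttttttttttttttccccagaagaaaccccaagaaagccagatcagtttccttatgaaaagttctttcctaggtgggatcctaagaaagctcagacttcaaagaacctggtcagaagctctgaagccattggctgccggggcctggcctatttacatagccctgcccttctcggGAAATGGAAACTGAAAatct
Oas1g (chr5:120887614-120887863, minus strand): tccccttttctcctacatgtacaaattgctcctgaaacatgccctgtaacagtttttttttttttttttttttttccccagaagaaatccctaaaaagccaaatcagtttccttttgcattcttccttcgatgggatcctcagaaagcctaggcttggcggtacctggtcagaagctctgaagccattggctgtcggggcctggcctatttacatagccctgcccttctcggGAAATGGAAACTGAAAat
Oas3 (chr5:120777660-120777909, minus strand): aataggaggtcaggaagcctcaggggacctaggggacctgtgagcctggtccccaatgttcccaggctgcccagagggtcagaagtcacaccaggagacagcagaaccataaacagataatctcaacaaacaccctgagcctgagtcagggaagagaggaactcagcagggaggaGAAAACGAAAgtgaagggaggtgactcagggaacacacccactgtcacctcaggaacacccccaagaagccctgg
Oasl1 (chr5:114922990-114923239, plus strand): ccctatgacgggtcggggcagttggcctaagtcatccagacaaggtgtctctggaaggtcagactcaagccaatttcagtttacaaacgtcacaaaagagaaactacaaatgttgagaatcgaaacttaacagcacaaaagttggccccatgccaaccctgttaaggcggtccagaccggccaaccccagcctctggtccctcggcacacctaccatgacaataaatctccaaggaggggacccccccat
Oas1a and Oas1g each held the run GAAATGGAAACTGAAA, which makes 2 overlapping ISRE matches, and Oas1a also held 1 gamma-activated site (TTCAAAGAA). Oas3 held 1 ISRE match (GAAAACGAAA), and Oasl1 and Oasl2 held none of either motif. The promoters of Oas1a and Oas1g were identical in 85.3% of alignment columns, against 45.9% to 50.3% for the other pairs. Their transcripts were also alike, with 57.6% of the 50-base windows of Oas1a present in Oas1g, so reads could have been split between these genes and their values are uncertain. The shared part was 4.38% of windows for Mx2 with Mx1, 0.521% for Oas3, 0.138% for Oasl2 and 0 for Oas2 and Oasl1. Oasl1 overlapped the antisense gene Gm13822 by 38 exon bases, and the use of strand in counting is not given in the sources used here.

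Library totals ran from 26066991 to 58659873 counts. The defining genes of CD8 T cells were high in every library, with summed levels of 5587 to 10118 CPM (counts scaled to a common library size with edgeR's TMM factors) over 9 genes, among them Cd3e and Cd8a. Markers of neutrophils and their precursors were present in every library too, at 2583 to 51011 CPM summed over 14 genes, and the 45S ribosomal RNA precursor Rn45s made up 0.714% to 5.81% of counts. The haemoglobin genes Hbb-bs, Hbb-bt, Hba-a1 and Hba-a2 were at 0 throughout. Other erythroid genes summed to as much as 1266 CPM in a BAR library of day 14. The haemoglobin values therefore do not show that erythroid RNA was absent. The values that move with a result are given beside it.

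Per kilobase of exon, Oas1a had the highest level of the 8 genes in every group, with means of 26.8 ± 4.27 CPM per kb in BMF at day 10 (SD, n = 5) and 24.7 ± 2.52 in BMF at day 14 (SD, n = 3). On the same scale Mx1, Oas3 and Oasl2 followed in BMF at day 10, at 6.33 ± 1.72, 5.11 ± 0.171 and 3.31 ± 1.54 CPM per kb. The means of Oasl1, Oas2 and Oas1g were lower there, at 2.23 ± 0.886, 1.59 ± 0.622 and 1.38 ± 0.558, and these 3 did not differ beyond their spread. Mx2 was lowest, at 0.345 ± 0.179 CPM per kb. The order shifted with the groups: in BAR at day 14 Oasl2 stood second at 20.1 ± 3.82 CPM per kb, and Mx1 had dropped to 0.687 ± 0.016. Counts behind single values ran from 6 for Mx2 in a BAR library at day 14 to 6439 for Oasl2.

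**Figure D1:**
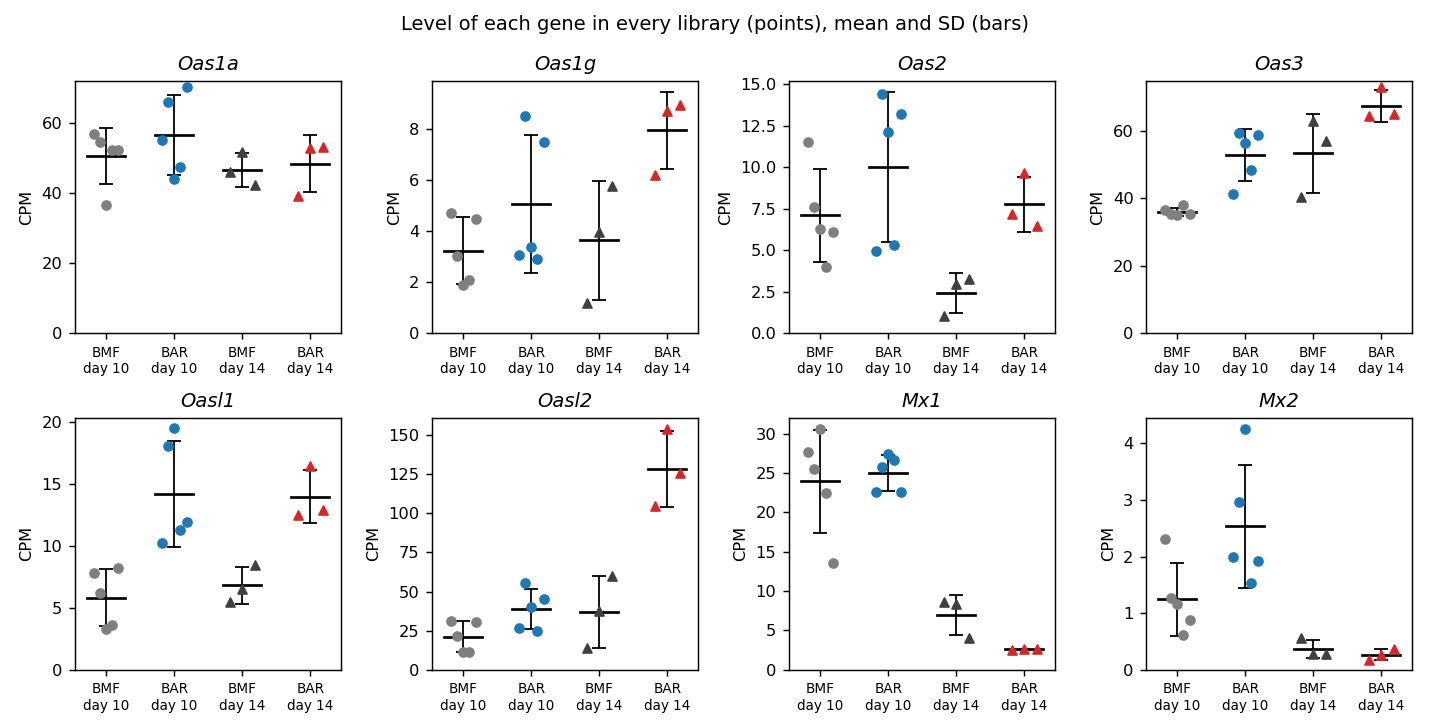
Level of each gene in CPM (vertical axis, linear from 0) in every library of the 4 groups, where each point is a library, the long bar is the group mean and the error bar is 1 SD (n = 5 at day 10, n = 3 at day 14). Oas1a overlaps across all groups, Oasl2 is at 105 to 154 CPM in BAR at day 14 and at most 59.8 elsewhere, and Mx1 and Mx2 are lower in every day 14 library than in any day 10 library.

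At day 10, which shows whether the drug changed these genes early in the disease, Oas3 and Oasl1 rose with baricitinib and the other 6 genes did not pass the test. A gene was called at a Benjamini-Hochberg adjusted p under 0.05 in edgeR's quasi-likelihood test. That is 2 of 8 genes called higher and 0 lower, beside 6.49% of all genes called higher and 7.94% called lower (14.4% in either direction). The median log2 fold change over the 8 genes was 0.60, against 0.00 over all genes tested.

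Oas3, the largest synthetase, stood at 36.5, 35.3, 35.1, 38.0 and 35.5 CPM in the 5 BMF libraries and at 41.3, 59.4, 56.6, 48.6 and 58.8 CPM in the 5 BAR libraries. Every BAR library was above every BMF library, and the BMF values lay close together. The log2 fold change was 0.55 ± 0.111 (SE, edgeR adjusted p = 0.00449). Oasl1 was measured at 7.83, 6.19, 3.27, 3.58 and 8.20 CPM in BMF and at 10.2, 18, 19.5, 11.3 and 11.9 CPM in BAR. The groups did not overlap here either, and the log2 fold change was 1.28 ± 0.267 (SE, edgeR adjusted p = 0.0079). Groups apart in this direction were seen for 3.80% of all genes, and in the other direction for 4.11%, where none of the 8 genes stood.

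Mx2 missed the threshold, with 2.31, 1.26, 1.17, 0.616 and 0.887 CPM in BMF and 2, 2.96, 4.25, 1.53 and 1.92 CPM in BAR. Every BAR library was above 4 of the 5 BMF libraries, and 3 BAR libraries were below BMF replicate 1. Its log2 fold change was 1.03 ± 0.348 (SE, edgeR adjusted p = 0.0549), and it passed without BMF replicate 1 (1.37, edgeR adjusted p = 0.0196), with DESeq2 (1.02, adjusted p = 0.0344) and with limma voom (1.09, adjusted p = 0.0452). Oasl2 had means of 21.1 ± 9.80 CPM without drug and 38.6 ± 12.8 with it (SD, n = 5 each), with overlapping libraries (log2 fold change 0.87 ± 0.41, edgeR adjusted p = 0.176). Oas1g, Oas2, Oas1a and Mx1 also overlapped, at log2 fold changes of 0.64, 0.49, 0.16 and 0.06. Mx1 had means of 23.9 ± 6.52 CPM without drug and 25.0 ± 2.27 CPM with it (SD, n = 5 each), with an SE of 0.201 on the log2 fold change.

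Other measures differed between the same libraries at day 10. Rn45s made up 4.01% of counts in BMF (range 1.15% to 5.81%) and 1.30% in BAR (1.22% to 1.43%; exact two-sided permutation p = 0.0476). The summed markers of plasmacytoid dendritic cells, which make type I interferon, were at 340 CPM in BMF (289 to 396) and 529 CPM in BAR (356 to 891; exact permutation p = 0.0238, adjusted p = 0.0774 over 13 marker lists), and none of the 12 genes was at 0. B and plasma cell markers were at 17.4 and 136 CPM (exact permutation p = 0.00794, the smallest that 5 against 5 allows, adjusted p = 0.0774), with 10 of 11 genes called higher. The BAR mean of that list rested on replicate 3, at 416 CPM against 33.8 to 81.1 CPM in the other 4, and was 66.3 CPM without it (exact permutation p = 0.0159). The same library had the highest sums for plasmacytoid dendritic cells (891 CPM) and conventional dendritic cells (1785 CPM). Without it the plasmacytoid list was at 439 CPM in BAR (exact permutation p = 0.0476) and the conventional list at 266 CPM against 283 CPM in BMF, and Oas3 and Oasl1 still passed edgeR's test, at log2 fold changes of 0.53 and 1.15. Erythroid markers were at 78.7 CPM in BMF (33.3 to 179) and 269 CPM in BAR (154 to 409; exact permutation p = 0.0238, adjusted p = 0.0774), with 5 of 7 tested genes called higher. The parts of the B cell, conventional dendritic cell and erythroid lists in the results were not tested. With Rn45s as a covariate in the fit, Oas3 was at 0.49 (edgeR adjusted p = 0.269) and Oasl1 at 0.95 (edgeR adjusted p = 0.395), in a fit that called 0.444% of all genes in either direction. Much of the plasmacytoid dendritic cell sum came from Bst2 and Irf8, which also stand in the lists of interferon targets read below. Group means of Bst2 were 113 CPM without drug and 150 CPM with it, and those of Irf8 were 143 and 171 CPM. The difference was wider than the sum shows. Of the 12 genes of the list, 7 were called higher and 0 lower, beside 6.49% and 7.94% of all genes. Its mean log2 level was higher in BAR by 2.14 (exact permutation p = 0.00794, adjusted p = 0.0516 over 13 marker lists). The covariate for these markers was not the sum but a mean log2 level over the list without Bst2 and Irf8. With that covariate Oas3 and Oasl1 were at 0.54 and 0.64 (edgeR adjusted p = 0.266 and 0.486), where 0.404% of genes were called. Without the 3 BMF libraries richest in Rn45s they were at 0.51 and 1.25 (edgeR adjusted p = 0.183 and 0.139), where 0.762% of genes were called. In libraries of mixed content, fewer cells of a type and less RNA per cell cannot be told apart.

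At day 14 calls were made in both directions. Oasl2, Oas2 and Oasl1 rose with baricitinib, Mx1 fell, and the other 4 genes did not pass the test. The 3 genes called higher stand beside 12.9% of all genes called higher, and the 1 called lower beside 12.2% called lower (25.2% in either direction). With 8 genes, the 1 lower call is near the share over all genes. Oasl2 was at 13.9, 37.8 and 59.8 CPM in the 3 BMF libraries and at 105, 154 and 126 CPM in the 3 BAR libraries. The groups were apart, and the BMF libraries spread widely. Its log2 fold change was 1.78 ± 0.534 (SE, edgeR adjusted p = 0.0284).

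Oas2, whose human counterpart is a synthetase found on membranes, was at 1.01, 2.95 and 3.26 CPM in BMF and at 7.15, 9.62 and 6.47 CPM in BAR, without overlap. The log2 fold change of Oas2 was 1.68 ± 0.512 (SE, edgeR adjusted p = 0.0286). Oasl1 was at 5.45, 6.53 and 8.43 CPM in BMF and at 12.5, 16.4 and 12.9 CPM in BAR, again without overlap. The log2 fold change of Oasl1 was 1.03 ± 0.342 (SE, edgeR adjusted p = 0.0384).

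Mx1 went the other way. Its levels were 8.60, 8.31 and 4.04 CPM in BMF and 2.53, 2.62 and 2.64 CPM in BAR, so every BAR library was below every BMF library and the BAR values nearly coincided. The log2 fold change of Mx1 was -1.42 ± 0.284 (SE, edgeR adjusted p = 0.00235). Mx2 was at 0.556, 0.273 and 0.277 CPM in BMF and at 0.167, 0.262 and 0.365 CPM in BAR, from 6 to 21 counts a library. These groups overlapped, and a difference was not detectable at this depth (log2 fold change -0.45 ± 0.538, edgeR adjusted p = 0.581).

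Oas3 and Oas1g did not pass at day 14 although their libraries did not overlap, at log2 fold changes of 0.34 ± 0.142 (edgeR adjusted p = 0.0899) and 1.13 ± 0.556 (edgeR adjusted p = 0.155). Groups apart in this direction were seen for 5 of the 8 genes, beside 21.8% of all genes with 3 libraries against 3, and in the other direction for Mx1 alone, beside 21.5%. Oas1a was at 46.5 ± 4.74 CPM without drug and 48.3 ± 8.08 CPM with it (SD, n = 3 each), a log2 fold change of 0.06 ± 0.184 (SE).

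Single libraries decided the 3 higher calls at day 14. Oas2 no longer passed without BMF replicate 1, BMF replicate 2 or BAR replicate 2 (edgeR adjusted p = 0.106, 0.0688 and 0.109). Oasl2 no longer passed without those libraries or BAR replicate 3 (edgeR adjusted p = 0.0917, 0.0926, 0.0974 and 0.0587). Oasl1 no longer passed without BMF replicate 1 or 2 or any 1 of the BAR libraries (edgeR adjusted p = 0.148, 0.124, 0.0546, 0.147 and 0.068), nor without BMF replicate 2 of day 10 (0.0523). Log2 fold changes over all 16 omissions stayed at 1.32 to 1.97 for Oas2, 1.39 to 2.32 for Oasl2 and 0.90 to 1.23 for Oasl1. Mx1 passed in all 16, at -1.69 to -1.24. With the plasmacytoid dendritic cell markers as a covariate Oas2, Oasl2 and Oasl1 were at 1.30, 1.31 and 0.51 (edgeR adjusted p = 0.198, 0.223 and 0.379), none passing. With Rn45s as a covariate Oasl2 and Oasl1 were at 1.57 and 0.85 and did not pass (edgeR adjusted p = 0.0634 and 0.0994). Oas2 was at 1.74 in that fit and passed narrowly (edgeR adjusted p = 0.049). The plasmacytoid dendritic cell sums were 259 to 281 CPM in BMF and 299 to 374 CPM in BAR at day 14. The arms were thus apart (exact permutation p = 0.1, the smallest that 3 against 3 allows). On the mean log2 scale the difference was 1.60 at the same p. The sums include Bst2 and Irf8, which the covariate left out. The parts of drug and plasmacytoid dendritic cell markers in the fit with those markers cannot be told apart.

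**Figure D2:**
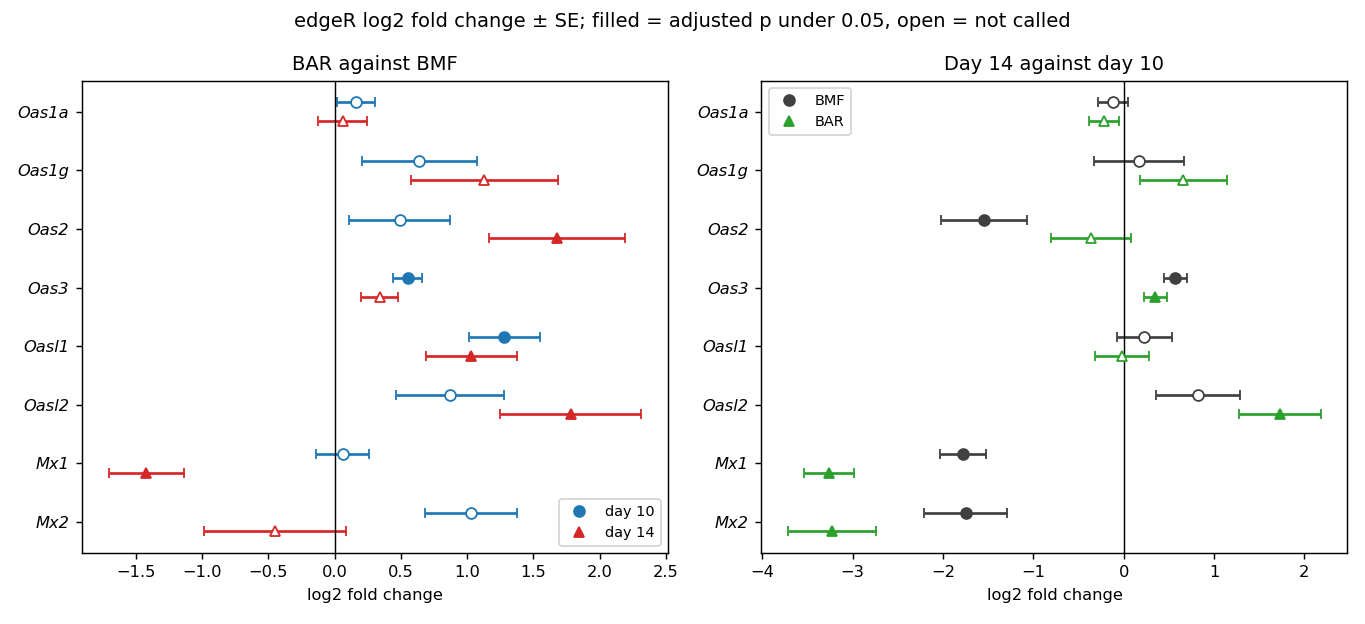
Log2 fold change of each gene with its SE, BAR against BMF on the left and day 14 against day 10 on the right, with filled symbols for an edgeR adjusted p under 0.05 and open symbols otherwise. Mx1 is at 0.06 at day 10 and -1.42 at day 14 in the drug comparison, and both Mx genes are at -3.23 or below over time in BAR.

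The difference between the drug effects of the 2 days was tested as an interaction. It passed for Mx1 alone among the 8 genes, beside 5.33% of all genes called lower and 5% called higher (10.3% in either direction). With 8 genes, 1 call is near that share. The effect on Mx1 was lower at day 14 than at day 10 by -1.49 ± 0.347 (log2, SE, edgeR adjusted p = 0.0155). Without BMF replicate 2 of day 14 the value was -1.34 and did not pass (edgeR adjusted p = 0.0544), nor did it pass with limma voom (-1.47, adjusted p = 0.0572). Mx2 had a change of similar size and a wider error, -1.48 ± 0.642 (edgeR adjusted p = 0.15), and Oas2 and Oasl2 had changes of 1.19 ± 0.631 and 0.92 ± 0.661 (edgeR adjusted p = 0.255 and 0.419). The calls of Oas3 at day 10 only, and of Oas2 and Oasl2 at day 14 only, were therefore not shown to differ between days.

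From day 10 to day 14, the Mx genes fell in both arms and Oas3 rose in both. The arms were compared each with its own earlier libraries. In BMF, 1 gene was called higher and 3 lower, beside 17.6% and 20.9% of all genes (38.5% together). In BAR, 2 were called higher and 2 lower, beside 19.2% and 19.8% (39.1% together). Taken in either direction, with 8 genes, these counts are near the shares over all genes in both arms. Mx1 fell from 23.9 to 6.99 CPM in BMF (log2 fold change -1.78 ± 0.253, edgeR adjusted p = 0.000113). In BAR Mx1 fell from 25.0 to 2.60 CPM (-3.26 ± 0.279, edgeR adjusted p = 1.97e-06). Mx2 fell from 1.25 to 0.369 CPM in BMF (-1.75 ± 0.46, edgeR adjusted p = 0.00667) and from 2.53 to 0.265 CPM in BAR (-3.23 ± 0.485, edgeR adjusted p = 8.32e-05). In BMF the call for Mx2 ended with limma voom (-1.61, adjusted p = 0.0526), with the plasmacytoid dendritic cell markers as a covariate (-0.76, edgeR adjusted p = 0.207) and without the 3 Rn45s-rich libraries of day 10 (-1.03, edgeR adjusted p = 0.16). For both Mx genes, all 6 libraries of day 14 were below all 10 of day 10. Libraries of day 14 lay wholly below those of day 10 for 19.6% of all genes in BMF and 21.2% in BAR, and wholly above for 17.1% and 20.1%, where Oas3 stood in both arms.

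Oas3 rose from 36.1 to 53.5 CPM in BMF (0.57 ± 0.126, edgeR adjusted p = 0.00217, and 0.0503 without the 3 Rn45s-rich libraries of day 10) and from 52.9 to 67.5 CPM in BAR (0.35 ± 0.126, edgeR adjusted p = 0.0344). The BAR value did not pass without BMF replicate 5 of day 10, BAR replicate 1 or 4 of day 10 or any 1 of the BAR libraries of day 14 (edgeR adjusted p of 0.0514 to 0.167). Oas2 fell in BMF (-1.55 ± 0.476, edgeR adjusted p = 0.0207, 0.0793 without BMF replicate 1 of day 14 and 0.212 without the 3 Rn45s-rich libraries of day 10) and was at -0.36 ± 0.439 in BAR. Oasl2 rose in BAR from 38.6 to 128 CPM (1.73 ± 0.453, edgeR adjusted p = 0.0103) and was at 0.82 ± 0.463 in BMF (edgeR adjusted p = 0.18). Oas1a, Oas1g and Oasl1 passed in neither arm.

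Markers of neutrophils and their precursors moved with several of these genes. This list holds granule and surface genes such as S100a8, Elane, Mpo and Csf3r, which CD8 T cells are not known for. Their summed level was 8260, 6066, 2583, 3327 and 9518 CPM in BMF at day 10 and 4790, 10972, 10303, 4636 and 13357 CPM in BAR, groups that overlapped (exact permutation p = 0.206). At day 14 it was 2798, 15944 and 22187 CPM in BMF and 46424, 51011 and 38913 CPM in BAR, so every BAR library was above every BMF library. The exact permutation p of 0.1 is the smallest that 3 against 3 allows, and 0 of the 14 marker genes passed the gene test at either day. Of the 13 marker lists, all but that of stroma and endothelium were apart between the arms at day 14, each at that same smallest p. Stem and progenitor cell markers, for example, were at 15.4 CPM without drug and 39.7 CPM with it. Erythroid markers had means of 19.5 CPM without drug and 882 CPM with it, and 7 of 7 tested genes were called higher. Markers of mast cells, basophils and eosinophils were at 15.4 CPM without drug (1.38 to 36.9; 4.71 without BMF replicate 3) and 457 CPM with it (311 to 662), and 7 of 7 genes were called higher. Markers of monocytes and macrophages were at 1152 and 3997 CPM, with 4 of 15 genes called higher and 4 lower, and those of conventional dendritic cells at 218 and 546 CPM, with 2 of 10 called higher and 1 lower. The CD8 T cell markers were at 9379 and 7093 CPM, with 6 of 9 genes called lower. Over all genes 12.9% were called higher and 12.2% lower at day 14, so the conventional dendritic cell counts are near those shares. Only the neutrophil and plasmacytoid dendritic cell lists were used as covariates. The parts of the other lists in the results at day 14 were not tested.

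Over the 16 libraries, the log2 level of Oasl2 correlated with the mean log2 level of the neutrophil markers at a Pearson r of 0.98, and at 0.96 after the group means were removed. The r values were 0.89 for Oas1g, 0.84 for Oas3, 0.70 for Oasl1, 0.39 for Oas2, 0.10 for Oas1a, -0.45 for Mx2 and -0.75 for Mx1. After the group means were removed they were 0.92, 0.75, 0.75, 0.84, 0.34, -0.00 and -0.57, in the same order. Mx2 had its closest match in the natural killer cell list, at 0.95 and 0.84 within groups. That list summed to 65.2 to 114 CPM in BMF and 101 to 232 CPM in BAR at day 10 (exact permutation p = 0.0159, adjusted p = 0.0774). Klra8 and Klra4 of its 7 genes were at 0. At day 14 it summed to 57.4 to 130 CPM in BMF and 219 to 274 CPM in BAR, where Mx2 was at 0.369 and 0.265 CPM. The sum thus did not follow Mx2 over the days, whereas r was taken on the mean log2 level. Of the list, 1 gene was called higher and 0 lower at day 10, and 0 higher and 2 lower at day 14. The part of the list in the value of Mx2 was not tested. Oasl2 was at 0.67 with the mast cell, basophil and eosinophil list and 0.71 with the erythroid list over the libraries, and at 0.92 and 0.79 within groups. With the monocyte and macrophage list, r over the libraries was 0.88 for Oasl2, 0.82 for Oas1g, 0.80 for Oas3 and 0.75 for Oasl1. Within groups these were 0.72, 0.77, 0.42 and 0.64. Oas2 was at 0.81 with the mast cell, basophil and eosinophil list, 0.75 with the erythroid list and -0.84 with the CD8 T cell list. Within groups Oas2 was at 0.64, 0.66 and -0.58 with them. High r was thus not particular to the neutrophil list. These are descriptions, since the points share groups and scaling. With the neutrophil markers as a covariate, no gene passed at day 14: Oasl2 was at 0.45 (edgeR adjusted p = 0.161), Oas2 at 0.46 (0.524), Oasl1 at 0.22 (0.756), Oas3 at 0.00 and Mx1 at -0.94 (0.0963), and 6.66% of all genes were called. At day 10 in the same fit, Oas3 was at 0.41 (edgeR adjusted p = 0.0107) and Oasl1 at 1.03 (edgeR adjusted p = 0.00256), so both calls held. At day 14 the covariate and the arms were apart, and their parts in the result cannot be told apart.

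**Figure D3:**
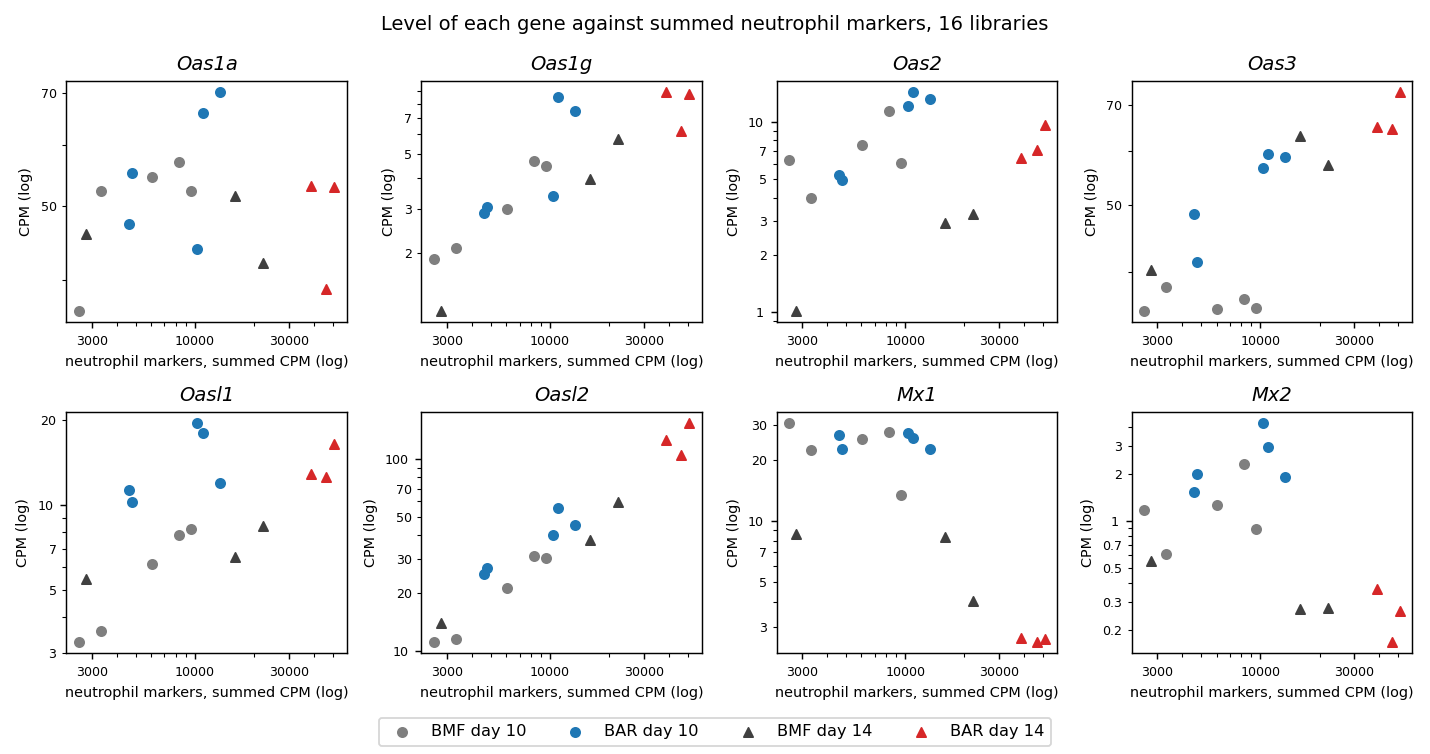
Level of each gene in CPM (vertical axis, log scale) against the summed CPM of 14 neutrophil and precursor markers (horizontal axis, log scale) in 16 libraries, with circles for day 10 and triangles for day 14. Oasl2 climbs with the markers through all groups (r = 0.98 for log2 levels against the mean log2 marker level), Oas1a shows little relation (r = 0.10) and Mx1 is lowest where the markers are highest (r = -0.75).

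The 8 genes did not move as a single set. Oas1g and Oasl2 were most alike, with r = 0.89 over the 16 libraries and 0.94 within groups. Oas1g, Oas2, Oas3, Oasl1 and Oasl2 had positive r with each other, from 0.22 to 0.89 over libraries and from 0.40 to 0.94 within groups. Mx1 and Mx2 had r = 0.87 over libraries and 0.42 within groups, and Mx1 was at -0.73 with Oasl2. Oas1a, which shares a promoter run and most of its transcript windows with Oas1g, was at 0.43 with Oas1g and at 0.15 with Oasl2. The 10 genes outside the set most like the mean standardised level of the 8 were Trafd1 (r = 0.873), Tmem138, Steap4, Sirpb1a, Ptprf, Rnd3, Lmcd1, Kcng2, Angpt1 and Grik4 (r = 0.819), over 16 libraries.

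**Figure D4:**
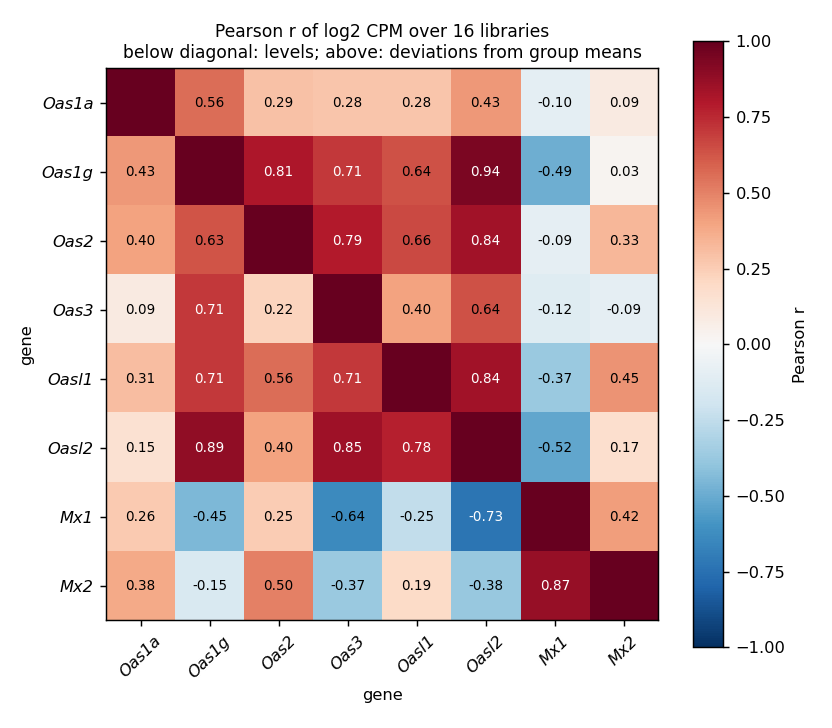
Pearson r of log2 CPM between each pair of the 8 genes over 16 libraries, with levels below the diagonal and deviations from group means above it. Oas1g and Oasl2 are at 0.89 and 0.94, Mx1 and Mx2 at 0.87 and 0.42, and Mx1 is at -0.73 and -0.52 with Oasl2.

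Relatives and partners of the synthetases were looked at next. Of 9 other Oas genes and pathway partners, 5 passed the filter on low counts, and 1 was called lower and 0 higher at day 10. Over all genes 14.4% were called in either direction, so with 5 genes this count is near that share. The gene called lower was Oas1c, a neighbour in the cluster, with 11.8 ± 2.31 CPM without drug and 8.65 ± 0.811 CPM with it (log2 fold change -0.44 ± 0.125, edgeR adjusted p = 0.0269). The call did not hold without BMF replicate 1, 2 or 3 or BAR replicate 1, 3 or 4 of day 10, nor with limma voom or any of the 3 covariates. It shares 15.1% of its transcript windows with other genes, so its value is uncertain. At day 14 none of the 5 was called, beside 25.2% of all genes, which with 5 genes says little. Oas1c was at -0.41 ± 0.163 there (edgeR adjusted p = 0.07). Abce1, which recycles ribosomes, and Pde12, which degrades the adenylate chains, lay within 0.16 of 0 on the log2 scale at both days. Oas1b, listed as a polymorphic pseudogene, was not called with the drug and fell with time, from 8.40 to 3.24 CPM in BMF (-1.37 ± 0.202, edgeR adjusted p = 7.6e-05) and from 8.02 to 2.57 CPM in BAR (-1.64 ± 0.205, edgeR adjusted p = 1.6e-05).

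Other targets of type I interferon were read beside the 8 genes. Of 54 such genes 52 were tested, and at day 10 37 were called higher and 1, Epsti1 (-0.62, edgeR adjusted p = 0.00363), lower, with a median log2 fold change of 0.51. Dhx58, Isg20 and Usp18 had the smallest p, at 0.79 ± 0.0865, 0.79 ± 0.1 and 0.90 ± 0.116 (edgeR adjusted p = 3.41e-05, 0.00018 and 0.000198). These counts stand beside 6.49% of all genes called higher and 7.94% called lower. The count of 37 was 8 with Rn45s as a covariate, 12 when the 3 Rn45s-rich BMF libraries were omitted and 1 with the plasmacytoid dendritic cell markers as a covariate. Calls fell across all genes in the same fits, from 14.4% in either direction to 0.444%, 0.762% and 0.404%. At day 14 the same list split, with 11 higher and 15 lower, beside 12.9% and 12.2% of all genes, and a median of -0.00. Ifi44 and Isg20 were higher there (1.67 ± 0.235 and 0.91 ± 0.129, edgeR adjusted p = 0.000121 and 0.000123) and Phf11b was lower (-0.77 ± 0.122, edgeR adjusted p = 0.000298). The change between days was called lower for 22 of the 52 genes and higher for 1, Ms4a4c, beside 5.33% and 5% of all genes, with a median of -0.47. Of the 8 Oas and Mx genes 1 was called lower, which is near the share over all genes, and their median was -0.16. With the neutrophil markers as a covariate, 6 were called higher and 5 lower at day 14, in a fit that called 6.66% of all genes.

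**Figure D5:**
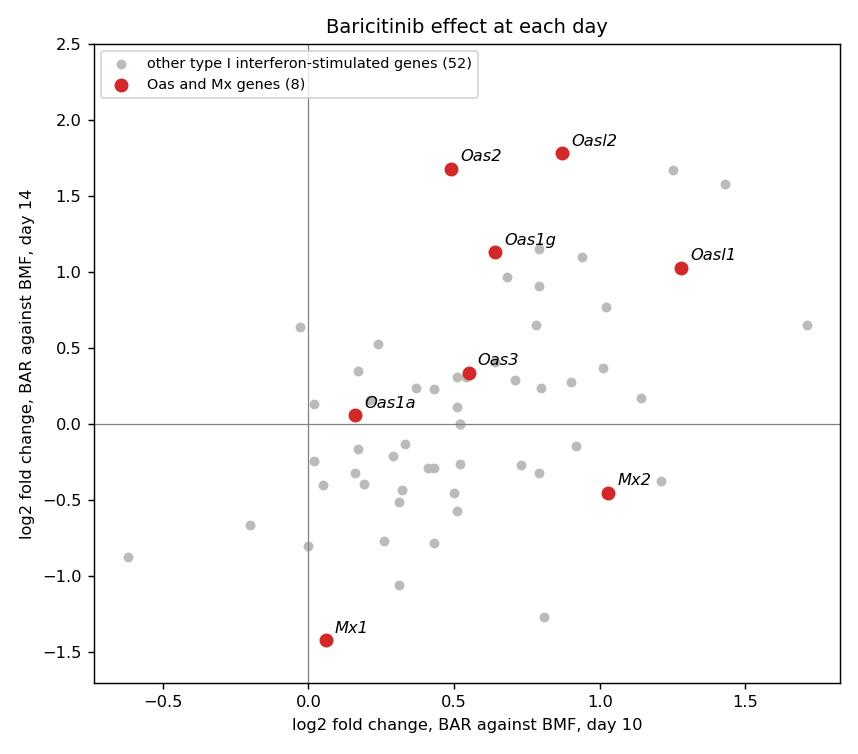
Log2 fold change of BAR against BMF at day 10 (horizontal axis) and at day 14 (vertical axis) for the 8 Oas and Mx genes in red and 52 other type I interferon-stimulated genes in grey. Mx1 is at 0.06 and -1.42, Mx2 at 1.03 and -0.45, and the other 6 genes lie above 0 at both days.

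Among genes of type I interferon signalling, Stat2, a transcription factor of the pathway, rose with the drug at day 10 (0.43 ± 0.0908, edgeR adjusted p = 0.00633). It did not pass with Rn45s or the plasmacytoid dendritic cell markers as a covariate. Irf9 was at 0.21 ± 0.0713 (edgeR adjusted p = 0.0542), and Ifnar1, Ifnar2, Jak1 and Tyk2 lay between -0.04 and 0.17. At day 14, Stat2 was at 0.23 ± 0.117 (edgeR adjusted p = 0.165), while Ifnar1, Tyk2 and Jak1 fell (log2 fold changes -0.39, -0.41 and -0.33, edgeR adjusted p = 0.00304, 0.00699 and 0.0276). Among 17 genes of nucleic acid sensing, 9 were called higher and 1 lower at day 10, beside 6.49% and 7.94% of all genes. At day 14, 2 were called higher and 4 lower, beside 12.9% and 12.2% of all genes, so that the 2 higher calls are near the share over all genes. Irf7, the protein whose translation Oasl1 holds back, had a log2 fold change of 1.14 ± 0.149 at day 10 (edgeR adjusted p = 0.000428). Of 10 feedback genes, 3 were higher and 2 lower at day 10, with Usp18 and Isg15 at 0.90 and 0.71, and 2 were higher and 1 lower at day 14, where Cish fell (-1.10, edgeR adjusted p = 0.00549). The shares over all genes for these counts are the same as for the sensing genes, and with 10 genes the day 14 counts are near them. Some genes stand in several lists. Dhx58 of the sensing list and Usp18 of the feedback list are also among the 52 other interferon targets. The counts of these lists are therefore not separate from the 37 called higher there at day 10.

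Genes best known as targets of interferon-gamma, the cytokine that CD8 T cells make, showed another order of days. Of 38 tested, 4 were higher and 5 lower at day 10 (median log2 fold change -0.06), beside 6.49% and 7.94% of all genes, and 17 higher and 2 lower at day 14 (median 0.47), beside 12.9% and 12.2%. Irgm2, Irgm1 and Gbp2, which code for GTPases of cell-autonomous defence, led at day 14 with 1.09 ± 0.117, 0.87 ± 0.101 and 1.73 ± 0.191 (edgeR adjusted p = 1.58e-05, 2.91e-05 and 3.44e-05). With the neutrophil markers as a covariate, 15 were higher and 0 lower at that day. That fit called 6.66% of all genes, with 523 of 14862 higher and 467 lower. Of 21 interferon genes in the table only Ifng passed the filter on low counts, at -0.62 ± 0.212 at day 10 and 0.44 ± 0.274 at day 14 (edgeR adjusted p = 0.0665 and 0.267). Ifnb1 had 3 counts over all 16 libraries together, and none of the Ifna genes had more than 13.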

How the data were processed

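RNA of sorted bone marrow CD8+ T cells was measured in 16 libraries (SMART-Seq mRNA LP kit, polyA RNA, per the labels' protocols). The authors deposited raw counts by gene symbol, as whole numbers without normalization. Per the submitters' processing notes, HISAT2 2.0.5 and the mm10 build were used. How reads were counted, with which annotation and strand setting, is not given in the sources used here. Of 24421 entries, 27 with dates for symbols (0.234% to 0.293% of counts) were left out. Groups come from the treatment label, and replicate numbers follow accession order and pair nothing.

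Differences were tested with edgeR 4.0.16 (R 4.3.3): filterByExpr, TMM, a robust quasi-likelihood fit with 1 mean per group (biological coefficient of variation 0.198) and Benjamini-Hochberg adjustment over 14862 genes, threshold 0.05. SE is the size of the log2 fold change divided by the square root of F. CPM are TMM-scaled, with a prior count of 2 for log2 values. The fit was run on counts simulated with the spread estimated from these data, without planted differences in cell content or Rn45s share. That run says nothing on such differences, and its outcome is not given here. Marker sums were compared by exact two-sided permutation tests. Positions and exon lengths are from GENCODE vM21. Alternatives used DESeq2 1.42.0, limma 3.58.1, other filters, covariates and omitted libraries. All 8 genes are named; from other lists the 3 genes with the smallest p per drug comparison, the receptor genes and the Oas relatives are named, and other names (Epsti1, Ms4a4c, Ifnb1) were chosen after their values were seen. The 8 genes and all lists were chosen with earlier results of these data known. Some genes of these lists are not reported here.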

Additional observations from a re-analysis of the deposited data

Results flagged for a closer look

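Oas1a in BMF at day 10 had a library apart from the others. Replicate 3 was at 36.5 CPM, against 52.3 to 56.9 CPM in the other 4, a gap larger than Dixon's 95% limit for 5 libraries. The 8 genes at the 2 groups of 5 gave 16 groups examined, and chance flags about 1 in 20. The same library had the lowest neutrophil marker sum of its group (2583 CPM) and the highest Rn45s share (5.81%); their part in the value was not tested.

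The baricitinib effect on Mx1 differed between days by a test of the difference itself, at -1.49 ± 0.347 on the log2 scale (edgeR adjusted p = 0.0155), from 0.06 at day 10 to -1.42 at day 14. With the neutrophil markers as a covariate the difference was -1.18 (edgeR adjusted p = 0.0372), and with Rn45s as a covariate it was -1.77 (edgeR adjusted p = 0.00114). The call ended with limma voom (-1.47, adjusted p = 0.0572) and without BMF replicate 2 of day 14 (-1.34, edgeR adjusted p = 0.0544).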

How the results depend on the processing

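For the 8 genes, 1072 alternative values of 40 log2 fold changes were computed; 984 kept direction and side of the threshold, 55 kept direction but no longer passed, 8 newly passed and 25 changed sign. Omitting the 3 BMF libraries richest in Rn45s, and each library from the marker sums, was chosen after seeing the data. No paired analysis was possible because the labels give no replicate numbers that groups share. Day 14 rests on 3 libraries an arm, and Mx2 on as few as 6 counts.

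Genes called higher at day 10 (2) became 1 with a minimum fold of 1.2 and 0 with the Rn45s covariate, the plasmacytoid dendritic cell covariate or without the 3 libraries, where few genes of any kind passed. Omitting 1 library gave 2 to 3. At day 14, the 3 called higher became 1 without the low-count filter or with the Rn45s covariate, 0 with a minimum fold of 1.2, the neutrophil covariate or the plasmacytoid dendritic cell covariate, and 0 to 3 when 1 library was omitted; the 1 called lower became 0 with the neutrophil covariate. The changed effect of Mx1 (1 called lower) became 0 with limma voom and 0 to 1 when 1 library was omitted. Over time in BMF, the 1 called higher became 0 without the 3 libraries, and the 3 called lower became 1 there and with the plasmacytoid dendritic cell covariate, and 2 to 3 when 1 library was omitted. In BAR, the 2 called higher became 1 with a minimum fold of 1.2, the plasmacytoid dendritic cell covariate or without the 3 libraries, 0 with the neutrophil covariate and 1 to 2 when 1 library was omitted; the 2 called lower became 4 with the neutrophil covariate. The cause was not tested.

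Values that changed sign were these. With the neutrophil covariate they were Oas2 at day 10 (-0.10), Oas1a and Oas1g at day 14 (-0.16, -0.27), the change for Oas1g (-0.29), Oas1g and Oasl1 over time in BMF (-0.65, -0.02) and Oas1g over time in BAR (-0.94); Oas1g passed the test over time in both arms there. With the plasmacytoid dendritic cell covariate they were Mx1 and Mx2 at day 10 (-0.04, -0.06), Oas1a at day 14 (-0.02) and Oas2 and Oasl1 over time in BAR (0.13, 0.69). With the Rn45s covariate they were Oas1a at day 14 (-0.02) and Oas1g over time in BMF (-0.02), and with limma voom Oasl1 over time in BAR (0.04). When 1 library was omitted, ranges crossed 0 for Mx1 at day 10 (-0.08 to 0.17), Oas1a at day 14 (-0.02 to 0.20), the change for Oas1a (-0.19 to 0.02), Oas1g over time in BMF (-0.33 to 0.59) and Oasl1 over time in BAR (-0.17 to 0.11).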

Other observations

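Single genes most like each of the 8 over the 16 libraries were looked up after the values were seen. Oasl2 was most like Hdc, which codes for the enzyme that makes histamine (r = 0.992), Chil1 (r = 0.985) and Igsf6 (r = 0.985). Oas1g was most like Ifitm2, Ifitm3 and Ifitm6, membrane proteins induced by interferon (r = 0.935, 0.934 and 0.934). Oas3 was most like Ddx60 (r = 0.915), and Oasl1 was like Steap4 and Isg20 (r = 0.939 and 0.925). Mx1 was most like 2010111I01Rik, Haus3 and Ska3, of which the latter pair code for proteins of the mitotic spindle (r = 0.981, 0.972 and 0.967). Mx2 was most like Col17a1 (r = 0.974). The highest r for Oas1a was 0.835, with 2210406O10Rik. These are maxima over 14862 genes and are given as descriptions.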
